A study of Mus musculus with 12 samples.

Results

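The comparison described here is the transcriptional response to Cre in 4 mouse pancreatic ductal adenocarcinoma (PDAC) cell lines that express high levels of Cdh1, the gene for the epithelial adhesion protein E-cadherin. The study profiled 6 PDAC lines by RNA sequencing, each as a parental library labelled Wildtype and a Cre library labelled JAK1 Knockout, 12 libraries in all. Lines were kept when parental Cdh1 reached 20 read counts per 1e+06 reads (CPM), so that the lines were chosen by a measured value: 52205, 52424, 53105 and 53371, 8 of 12 libraries in 4 of 6 pairs. Parental Cdh1 was 682, 805, 272 and 396 CPM in these lines, in that order, against 17.5 CPM in line 53369, the nearest line outside the threshold, and 0.372 CPM in line 52419. These Cdh1 values chose the lines and are given as a description.

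The parental cells were not infected. The Cre cells derive from them by infection with pBabe-Cre-puro retrovirus and selection in puromycin at 2, 4 and then 7 µg/ml. No library infected with an empty vector was analysed here, so deletion of Jak1, Cre itself, infection, drug selection and time in culture cannot be told apart. The labels give neither the part of Jak1 that is deleted nor whether a Cre population is 1 clone, and each line and condition has 1 library, so a p-value reports only how consistent a change was from line to line.

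JAK1 is a tyrosine kinase bound to the intracellular part of many cytokine receptors. Receptors of the interleukin-6 family, which share the gp130 subunit (Il6st), the interleukin-4 and interleukin-13 receptors and the interferon receptors all use it to phosphorylate STAT transcription factors. In epithelial cells, STAT3 acts with C/EBP transcription factors on acute-phase genes such as Lcn2, and induces Socs3, which feeds back on the receptor.

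Promoter windows are shown for 3 genes of this axis that were lower in every pair, because each stands for a different layer of it: the receptor Osmr, the feedback inhibitor Socs3 and the secreted protein Lcn2. Each window runs from 250 bases before to 50 after the RefSeq gene start, 5′ to 3′ on the minus strand of GRCm38. Osmr was read at chr15:6874264-6874563, Socs3 at chr11:117969317-117969616 and Lcn2 at chr2:32387690-32387989. Capitals mark matches, on either strand, to the STAT motif TTCNNNGAA or to the C/EBP motif TTGCNNAA, and the 2 motifs do not overlap in these windows.
Osmr: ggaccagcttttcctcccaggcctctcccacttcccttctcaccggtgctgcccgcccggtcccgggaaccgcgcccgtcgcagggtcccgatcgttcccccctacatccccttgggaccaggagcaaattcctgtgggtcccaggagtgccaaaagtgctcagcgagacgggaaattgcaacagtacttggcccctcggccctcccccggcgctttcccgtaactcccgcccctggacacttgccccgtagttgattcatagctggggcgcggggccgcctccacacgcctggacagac
Socs3: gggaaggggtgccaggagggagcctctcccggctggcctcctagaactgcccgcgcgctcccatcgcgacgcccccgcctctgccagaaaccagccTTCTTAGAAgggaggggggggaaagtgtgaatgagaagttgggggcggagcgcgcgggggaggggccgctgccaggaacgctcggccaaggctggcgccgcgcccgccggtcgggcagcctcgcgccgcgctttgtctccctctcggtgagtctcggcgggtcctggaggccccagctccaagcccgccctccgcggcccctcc
Lcn2: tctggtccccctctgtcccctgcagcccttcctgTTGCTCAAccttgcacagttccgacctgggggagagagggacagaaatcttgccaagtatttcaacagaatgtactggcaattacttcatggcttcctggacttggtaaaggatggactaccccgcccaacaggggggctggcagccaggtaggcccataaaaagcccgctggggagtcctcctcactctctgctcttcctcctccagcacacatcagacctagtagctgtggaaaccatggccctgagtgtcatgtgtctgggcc
The Socs3 window held 1 STAT match, starting at base -154 from the gene start, and the Lcn2 window held 1 C/EBP match, starting at base -216. The Osmr window held neither string. Windows of Il13ra1, Il4ra, Stat3, Bcl3 and Sulf2, which were also read and are not shown, held neither string either. Of all 32851 mouse promoter windows in the table, 8.30% held the STAT string and 10.8% the C/EBP string, so a match is a description of the window and not a binding site.

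Reads assigned to genes ranged from 11.5 to 18.0 M (M, 1e+06 reads) over the 8 libraries, and 1 read was worth 0.0569 to 0.0896 CPM. Of the lines kept, not all carried the epithelial programme that the name Cdh1-high might imply. Krt8, a keratin of simple epithelia, was at 2401, 1568, 1346 and 1140 CPM in the parental libraries of 52205, 52424, 53105 and 53371. Epcam, an epithelial surface protein, was at 79.3, 366 and 69.2 CPM in 52205, 52424 and 53371 but at 1.99 CPM in 53105. Esrp1, an epithelial splicing regulator, was at 23.1, 109 and 9.53 CPM in the same 3 lines and at 0.227 CPM in 53105. Prrx1, a mesenchymal transcription factor, was at 142 CPM in 53105 and between 1.98 and 22 CPM in the other 3 lines. Line 53105 was therefore high in Cdh1 and keratin and low in Epcam and Esrp1, while the Cdh1-low line 53369 still had Krt8 at 776 CPM. The lines are called Cdh1-high rather than epithelial for this reason. Of the leukocyte markers, the defining gene Ptprc was at most at 1.02 CPM in the 8 libraries, and the summed level of the 14 leukocyte markers in the table ranged from 2.50 to 32.7 CPM in parental and from 2.08 to 11.3 CPM in Cre libraries, with 1 of the 14 at 0 in all 8. The summed level of 17 fibroblast markers ranged from 44.0 to 208 CPM in parental and from 38.5 to 189 CPM in Cre libraries. The part of either cell type in the results was not tested. In bulk RNA, fewer cells that express a gene and less RNA per cell cannot be told apart.

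**Figure D1:**
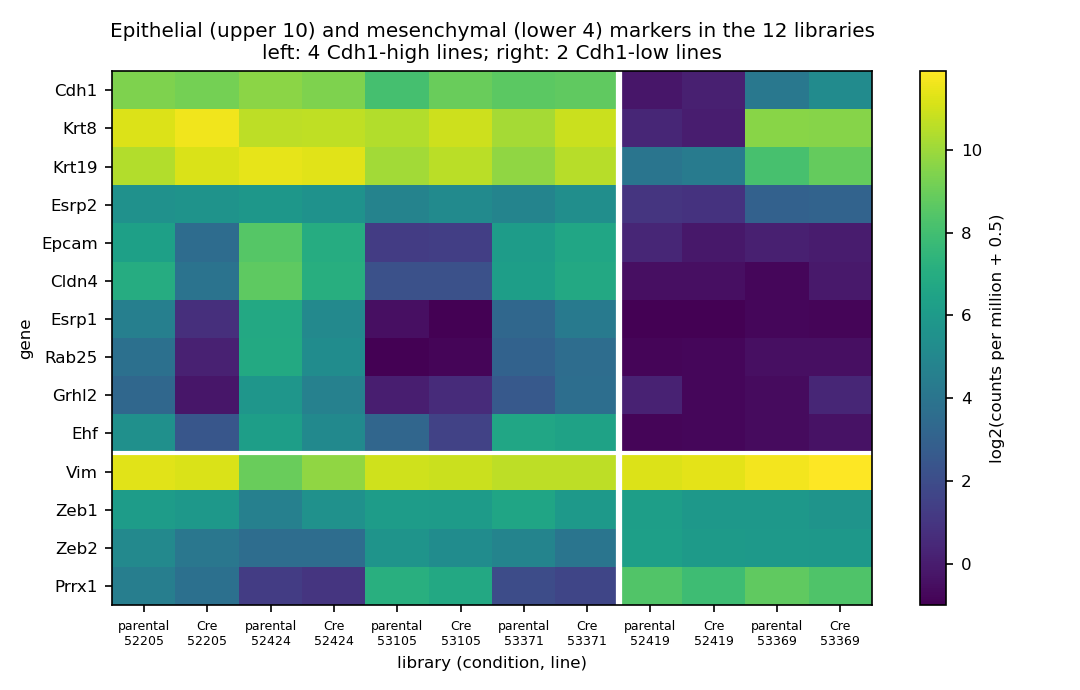
Heat map of 10 epithelial and 4 mesenchymal genes (rows) in the 12 libraries (columns), coloured by log2(CPM + 0.5). Line 53105 has little of the Epcam, Cldn4, Esrp1 and Rab25 signal of the other 3 Cdh1-high lines, and these genes are lower in the Cre than in the parental library of 52205 and 52424.

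The parental library of 53371 and the Cre library of 52205 stood apart from the rest. In the parental library of 53371, Mki67, a marker of cycling cells, was at 25.8 CPM, against 104 to 209 CPM in the parental libraries of the other 3 lines and 249 CPM in its own Cre library. In the Cre library of 52205, Epcam was at 11.1 CPM against 79.3 CPM in its parental library, and Cldn4, a tight-junction claudin, at 14.6 against 128 CPM. Line by line, 654 of 12858 tested genes changed at least 2-fold between the libraries of 52205, of which 579 were lower after Cre. The numbers were 869 for 52424, 318 for 53105 and 981 for 53371. Counts without each line are given below and in the closing section.

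Jak1 transcript was not lower in the Cre libraries. Jak1 (chr4:101151974-101265282) was at 207, 183, 172 and 169.7 CPM in the parental libraries of 52205, 52424, 53105 and 53371 and at 192, 234, 155 and 179 CPM in their Cre libraries. The pairs of 52205 and 53105 were lower after Cre, those of 52424 and 53371 higher, and the groups overlapped. The log2 change was 0.05 (SE 0.12, 95% confidence interval -0.23 to 0.32, limma adjusted p = 0.933), and an exact 2-sided sign-flip test over the 4 pairs gave p = 0.875. A deletion that leaves most of the transcript in place is not visible in a count over the whole gene, so these values check the labels neither way.

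Across all genes, no gene passed the threshold in the paired limma fit of the 4 lines, neither lower (0 of 12858, 0%) nor higher (0%), at an adjusted p under 0.05. At an unadjusted p under 0.05, 687 genes were lower (5.34%) and 522 higher (4.06%). The quasi-likelihood test of edgeR on the recovered reads also called 0 genes, with 658 lower and 476 higher at an unadjusted p under 0.05. DESeq2 on the same reads called 79 genes lower (0.614%) and 19 higher (0.148%) at an adjusted p under 0.05. Of these, 76 of the 79 were lower in all 4 pairs and 18 of the 19 were higher in all 4. The calls were made on the same pairs with line as a block, so a shared direction is no separate support for them. All genes together were lower in all 4 pairs in 9.44% of cases (1214 genes) and higher in all 4 in 8.02% (1031 genes), and these shares are the background for the list counts below. Without the pair 52424, DESeq2 called 24 genes lower and 5 higher, of which 20 were among the 98 called with all 4 pairs. With all but 53105 it called 96 lower and 63 higher. Of the 98 calls, 11 were called whichever pair was left out, among them Cebpd, Il13ra1, Lbp, Pros1, Sulf2, Sema3f, Aldh1l2, S100a13 and Rasgrp3, and 21 were called in none of the 4 leave-outs. A gene that DESeq2 filters out in a leave-out has no adjusted p there and counts as neither kept nor lost, as for 16 of the 98 without 52424. The word "called" below refers to DESeq2. For the other genes described as called in the fit of the 4 pairs, the pairs without which the call ended are given. With 1 pair left out the background rises, to between 13.5% and 17.8% of genes lower and between 12.8% and 15.3% higher in all 3 remaining pairs. List counts below that leave out 1 pair mostly give the pair with the largest share, picked after the values were seen. With 4 pairs an exact sign-flip test cannot go below p = 0.13, the value for Osmr, Cebpd and Lcn2.

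Of the tested receptor subunits and ligands listed as signalling through JAK1, Osmr, Il13ra1 and Il4ra were called lower by DESeq2, with unequal stability. The Il13ra1 call held without each pair in turn, that of Osmr held without 52205, 53105 or 53371 and had no adjusted p without 52424, and that of Il4ra ended without 52424, 53105 or 53371. Lepr, the leptin receptor, was outside that list and was also called, and its call held only without 52205. Osmr, the oncostatin M receptor, which pairs with gp130, was at 5.11, 14.3, 9.27 and 10.5 CPM in the parental libraries of 52205, 52424, 53105 and 53371 and at 0.269, 2.11, 3.32 and 2.87 CPM in the Cre libraries. Every Cre value lay below every parental value. The mean log2 change was -2.11 (SE 0.29, 95% interval -2.78 to -1.43, limma adjusted p = 0.328, DESeq2 adjusted p = 0.000145). Il13ra1, the interleukin-13 receptor subunit that also completes the type II interleukin-4 receptor, was at 15.2, 49.0, 32.2 and 22.2 CPM before and 7.08, 18.9, 10.1 and 12.4 CPM after Cre. It was lower in each pair, although the Cre value of 52424 exceeded the parental value of 52205, and its log2 change was -1.21 (SE 0.18, limma adjusted p = 0.328, DESeq2 adjusted p = 4.5e-05). Il4ra, the interleukin-4 binding subunit, was at 164, 206, 195 and 248 CPM before and 126, 139, 116 and 151 CPM after Cre. No Cre value reached a parental one, and the change of -0.60 (SE 0.11) had a DESeq2 adjusted p of 0.00228. Of the partners of these subunits, Il6st was at 84.0, 65.2, 171 and 115 CPM before and 73.9, 94.3, 166 and 107 CPM after Cre. Lifr, the leukaemia inhibitory factor receptor, changed by 0.12 (SE 0.19, limma adjusted p = 0.879), higher in 2 pairs and lower in 2. Of 21 tested genes for receptor subunits and ligands that signal through JAK1, 5 were lower in all 4 pairs (23.8%, against 9.44% of all genes): Osmr, Il13ra1, Il4ra, Crlf2, a subunit of the thymic stromal lymphopoietin receptor, and Clcf1, a gp130 ligand. Il20rb, with a change of 0.23 (SE 0.24), was the 1 member higher in all 4. The median change of the list was -0.16, against -0.01 over all genes, and without 53371 it was -0.003. Without 53105, 8 of the 21 were lower in the other 3 pairs (38.1%, against 16.1% of all genes).

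No tested JAK kinase or STAT factor passed limma or was called by DESeq2. Stat3 was at 108, 164, 134 and 135 CPM before and 75.7, 145, 101.03 and 97.5 CPM after Cre, lower in each pair, with a change of -0.39 (SE 0.11, limma adjusted p = 0.451, DESeq2 adjusted p = 0.154). Jak2 changed by -0.15 (SE 0.11), Tyk2 by 0.05 (SE 0.11) and Stat6 by -0.03 (SE 0.10), each with a limma adjusted p of 0.703 or above. Jak3, chiefly a kinase of lymphoid cells, was lower in each pair, with a change of -0.55 (SE 0.18, limma adjusted p = 0.494). Over the 10 tested JAK and STAT genes, 2 were lower in all 4 pairs, Jak3 and Stat3 (20%, against 9.44% of all genes). Another 1 was higher in all 4 (10%, against 8.02%), and the median was -0.09. Among 17 feedback inhibitors and phosphatases, 4 were lower in all 4 pairs (23.5%), namely Pias2, Ptpn2, Socs1 and Socs3, and none was higher in all 4. Without 52424, 7 of the 17 were lower in the other 3 pairs (41.2%, against 14.6%). Socs3, whose promoter window is shown above, was at 29.4, 45.0, 27.5 and 27.3 CPM before and 19.9, 32.9, 16.2 and 23.6 CPM after Cre. Its change of -0.49 (SE 0.14) did not pass the limma test (adjusted p = 0.485) or that of DESeq2 (adjusted p = 0.234).

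Genes of the acute-phase response and other STAT3 targets were lower in all 4 pairs in 12 of 24 tested cases (50%, against 9.44% of all genes). The median change was -0.32, and it was -0.21, -0.17, -0.23 and -0.31 in 52205, 52424, 53105 and 53371. Leaving out any 1 pair kept the median between -0.32 and -0.35, with 12 to 15 members lower in all remaining pairs. Without 52205, for example, 12 of 24 members were lower in the other 3 pairs (50%, against 17.8% of all genes). Cebpd, a C/EBP factor induced by STAT3, was at 31.0, 28.6, 42.7 and 47.9 CPM before and 5.56, 14.5, 16.1 and 15.6 CPM after Cre, with no overlap of the groups. Its log2 change of -1.58 (SE 0.23, limma adjusted p = 0.328) had a DESeq2 adjusted p of 1.19e-05, the smallest of all genes. Cebpb, a related factor, was lower in each pair, with a change of -0.52 (SE 0.14, limma adjusted p = 0.441).

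Of this list, the secreted proteins Lcn2 and Lbp had the widest mean changes. Lcn2, the siderophore-binding protein lipocalin 2, was at 21.9, 9.56, 2.62 and 28.4 CPM before and 0, 0.8, 0.475 and 8.11 CPM after Cre. In 52205 no Lcn2 read remained, so that with 3 reads taken as the limit that a count of 0 allows Lcn2 was at least 81.3-fold lower there. The 53371 Cre value exceeded the 53105 parental value, and the fitted change of -2.96 (SE 0.59) passed neither limma (adjusted p = 0.407) nor DESeq2 (adjusted p = 0.208). Lbp, which binds bacterial lipopolysaccharide, was at 52.3, 6.11, 23.4 and 90.9 CPM before and 6.18, 2.04, 11 and 40.9 CPM after Cre (change -1.64, SE 0.31, DESeq2 adjusted p = 0.00033). The complement component C3 was at 32.2, 3.96, 3.30 and 22.6 CPM before and 1.43, 3.64, 0.89 and 18.3 CPM after Cre. Lower values in C3 thus came mainly from 52205 and 53105. Ceruloplasmin (Cp), a copper-binding plasma protein, was lower in 3 pairs and at 68.0 before and 76.9 CPM after Cre in 52424. Mcl1 and Birc5, survival genes of the same list, were higher in all 4 pairs, and Birc5 is also a mitotic gene and was at 8.66 CPM in the parental library of 53371 against 94.7 CPM after Cre. Interleukin-6 itself (Il6) had 0 reads in all 8 libraries, which allows up to 0.171 to 0.269 CPM per library.

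**Figure D2:**
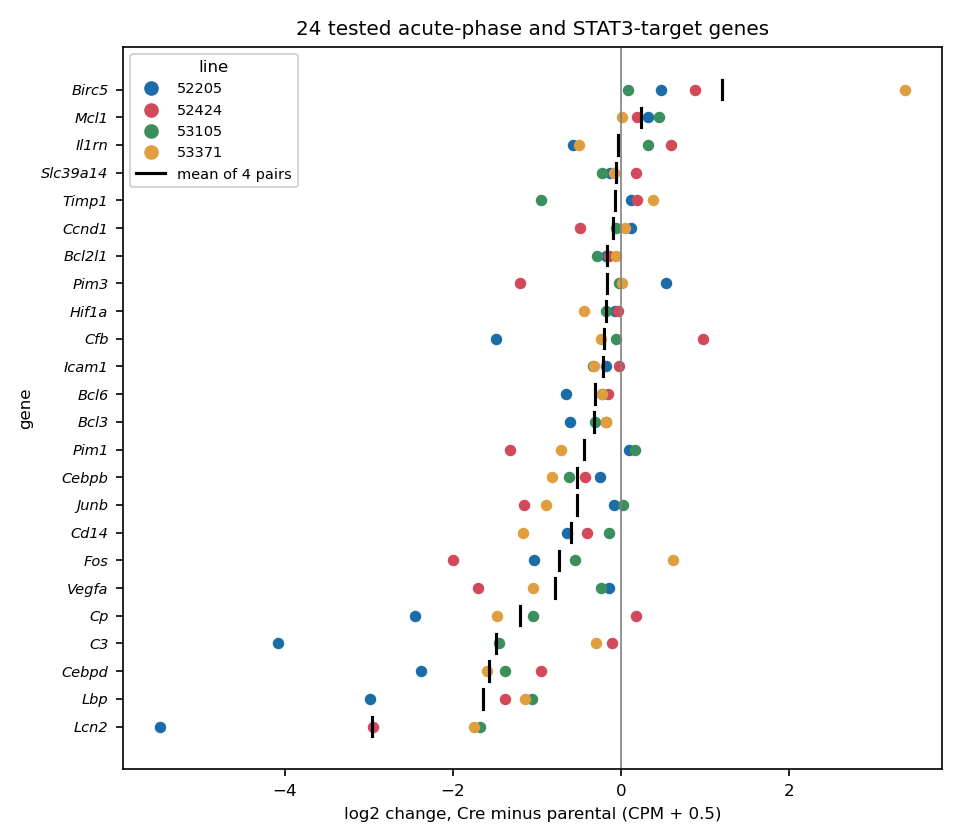
Log2 change (Cre minus parental, on CPM + 0.5) of the 24 tested acute-phase and STAT3-target genes, 1 point per Cdh1-high line and a bar at the mean of the 4 pairs. The means of 22 genes lie below 0, Lcn2, Lbp and Cebpd are lower in every line, and Birc5 and Mcl1 are higher in every line.

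Outside this list, the plasma protein gene Pros1 (protein S, a cofactor in anticoagulation) was at 33.3, 26.2, 54.2 and 32.4 CPM before and 10.6, 15.5, 33.2 and 16.6 CPM after Cre. It was called, with a change of -0.998 (SE 0.18, DESeq2 adjusted p = 0.00251), and was lower in each pair.

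In all, 9 of 12858 genes were at least 2-fold lower in each of the 4 pairs (0.07%), and none was at least 2-fold higher in each (0%). Among the 9 lower genes were Osmr, Lcn2, Lbp, Smoc1, Sox7, Rasgrf1, Thbs2 and the pseudogene Olfr1372-ps1, whose reads may be shared with related olfactory receptor genes. Smoc1, a secreted calcium-binding matrix protein, was at 11.9, 8.52, 10.9 and 7.09 CPM before and 0.0896, 3.49, 4.33 and 1.35 CPM after Cre. Sox7, a transcription factor, and Rasgrf1, a RAS exchange factor, changed by -1.48 (SE 0.25) and -1.49 (SE 0.25), from parental values of at most 8.74 and 4.83 CPM. Thbs2, the matricellular protein thrombospondin 2, was at 1.64 to 4.15 CPM before and 0.218 to 1.36 CPM after Cre in the Cdh1-high lines. With a pseudocount of 2 in place of 0.5, only 1 gene passed this limit. Requiring 1 CPM in every library also left only 1. Tested genes needed 1 CPM in at least 4 of the 8 libraries, so parental values alone could let a gene in.

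**Figure D3:**
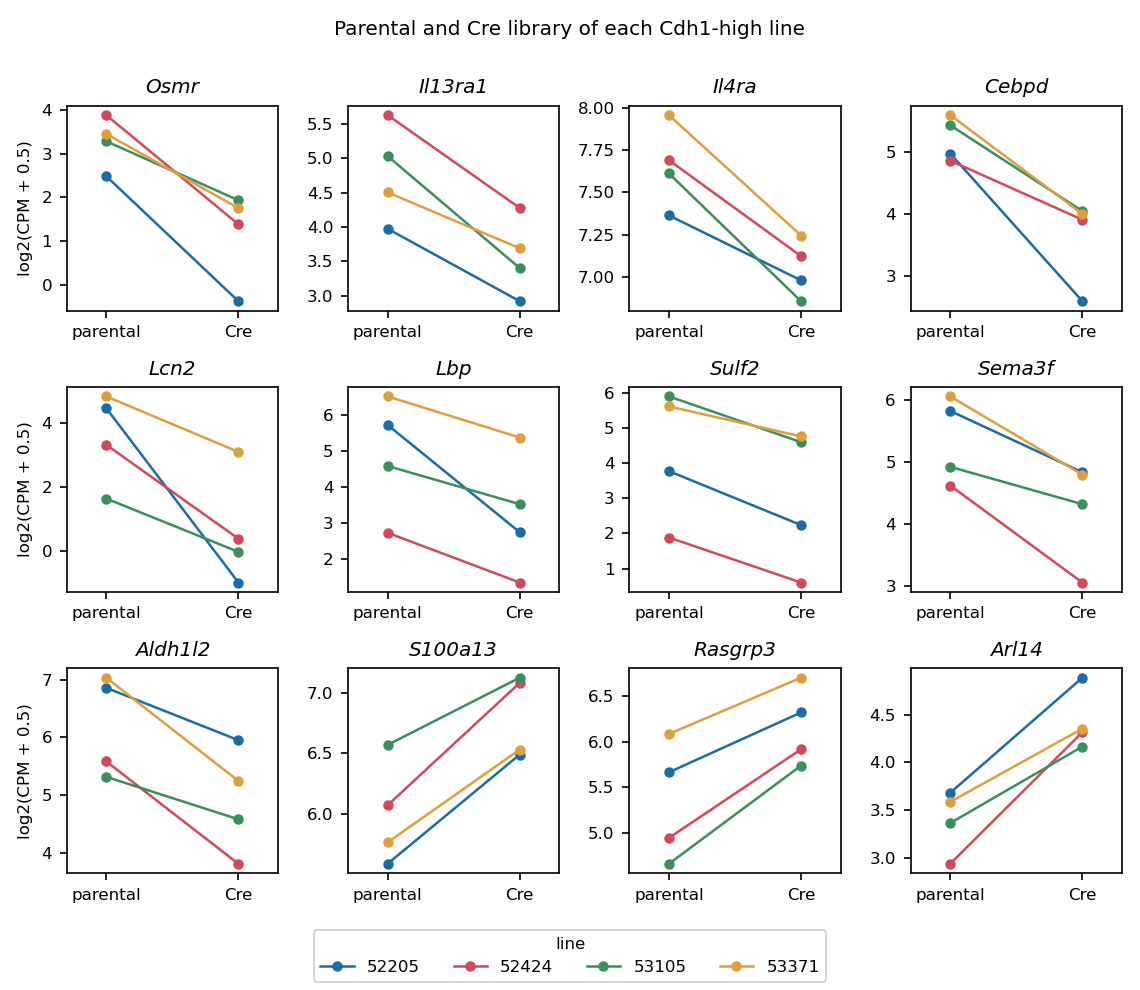
Parental and Cre values, as log2(CPM + 0.5) on an axis scaled to each gene, of 12 genes in the 4 Cdh1-high lines, 1 line per pair. Osmr to Aldh1l2 are lower and S100a13, Rasgrp3 and Arl14 higher in all 4 pairs.

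Sulf2 and Sema3f were also among the genes with the smallest p. Sulf2, an extracellular sulfatase that trims heparan sulfate, was at 13.1, 3.19, 59.0 and 48.4 CPM before and 4.21, 1.02, 23.7 and 26.5 CPM after Cre (change -1.24, SE 0.18, limma adjusted p = 0.328, DESeq2 adjusted p = 7.41e-05). Levels differed between the lines far more than between conditions, so the groups overlapped although each pair moved the same way. Sema3f, a secreted semaphorin, was at 56, 24, 29.7 and 66 CPM before and 28, 7.78, 19.4 and 27.2 CPM after Cre (change -1.11, SE 0.18, DESeq2 adjusted p = 0.000242). Matrix genes were among the calls. Fn1 (fibronectin) was at 5145, 2241, 4666 and 4716 CPM before and 3189, 1334, 3646 and 2448 CPM after Cre, with a change of -0.68 (SE 0.17, DESeq2 adjusted p = 0.000775), and without 52424 the call ended (adjusted p = 0.0522). The matrix metalloproteinases Mmp13 and Mmp10, genes chosen here after their values were seen, changed by -1.10 (SE 0.22) and -1.70 (SE 0.31), with DESeq2 adjusted p of 0.00251 and 0.00704. Over the pairs the changes ran from -1.59 to -0.30 for Mmp13 and from -2.52 to -0.73 for Mmp10, and both calls ended without 52205 or 53371, while Mmp10 had no adjusted p without 52424. Of 33 tested mesenchymal genes, 8 were lower in all 4 pairs (24.2%) and 2 higher, while the list's median was 0.02. Without 52205, 7 were higher in the other 3 pairs (21.2%, against 15% of all genes). Without 52424, 12 were lower in the other 3 pairs (36.4%, against 14.6%), and the median was -0.19. The 8 lower in all 4 pairs were Fn1, Loxl1, Mmp2, Pdgfra, Prrx1, Snai1, Tgfbr1 and Thbs2. Vim, the mesenchymal intermediate filament, was lower in 2 pairs and higher in 2.

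Amino-acid and stress genes under the transcription factor ATF4 had lower values after Cre mainly in 52424 and 53371. Aldh1l2, a mitochondrial enzyme of folate metabolism, was at 115, 47.4, 39.4 and 131 CPM before and 61.4, 13.5, 23.4 and 37.4 CPM after Cre (change -1.30, SE 0.21, limma adjusted p = 0.328, DESeq2 adjusted p = 4.5e-05). Trib3, a pseudokinase induced by ATF4, was at 141, 148, 30.9 and 127 CPM before and 137, 27.8, 17.6 and 33.1 CPM after Cre. It was nearly the same in both libraries of 52205 and much lower after Cre in 52424 and 53371. Slc7a3, a transporter of cationic amino acids, and Slc7a11, the cystine transporter subunit, changed by -1.37 (SE 0.35) and -0.76 (SE 0.19), with DESeq2 adjusted p of 0.0225 and 0.0439. Over the pairs the changes ran from -2.68 to -0.40 for Slc7a3 and from -1.36 to -0.19 for Slc7a11. The Slc7a3 call ended without 52424 or 53371, and that of Slc7a11 held only without 53105. Over the 37 tested genes of the unfolded-protein and ATF4 list, 10 were lower in all 4 pairs (27%, against 9.44% of all genes) and none was higher in all 4. The medians by line were 0.14, -0.67, -0.19 and -0.60 for 52205, 52424, 53105 and 53371. Without 52205, 21 of the 37 were lower in the other 3 pairs (56.8%, against 17.8% of all genes). The 6 members whose mean change lay above 0 were Creld2, Edem1, Hsp90b1, Manf, Pdia4 and Sdf2l1, genes of protein folding and degradation in the endoplasmic reticulum.

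Genes of DNA replication and mitosis had higher values after Cre, by their median, in 3 of the 4 lines, most of all in 53371. All 45 tested members had a mean change above 0, and 14 were higher in all 4 pairs (31.1%, against 8.02% of all genes). The list's median was 0.82, but by line it was 0.37, 0.76, -0.05 and 2.17 for 52205, 52424, 53105 and 53371, and without 53371 it was 0.33. The count rested on another line: without 53105, 40 of the 45 were higher in the other 3 pairs (88.9%, against 15.3% of all genes) with a median of 1.11, while without 53371 it was still 14 (31.1%, against 13.2%). The summed level of the 45 genes ranged from 1196 to 4452 CPM over the parental libraries and from 4211 to 5158 CPM over the Cre libraries. Cdc20, which switches on a ubiquitin ligase that ends metaphase, was at 114, 59.8, 140 and 32.3 CPM before and 154, 104, 156 and 132 CPM after Cre, so that the Cre libraries were alike and the parental ones were not. Its change was 0.85 (SE 0.27, limma adjusted p = 0.493, DESeq2 adjusted p = 0.163). Uhrf1, which maintains DNA methylation at replication, changed by 0.96 (SE 0.30, limma adjusted p = 0.485). No member of this list was called by DESeq2. Cdkn1a, the cyclin-dependent kinase inhibitor p21, was lower in each pair, with a change of -0.69 (SE 0.21, limma adjusted p = 0.485).

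Among the genes higher after Cre, the changes were smaller. S100a13, a calcium-binding protein, was at 47.6, 66.7, 94.5 and 53.9 CPM before and 89.4, 135, 139 and 92.0 CPM after Cre (change 0.81, SE 0.12, limma adjusted p = 0.328, DESeq2 adjusted p = 6.61e-05). Rasgrp3, an exchange factor for RAS and RAP, was at 50.2, 30.4, 24.9 and 67.3 CPM before and 79.2, 59.9, 52.9 and 103 CPM after Cre (change 0.83, SE 0.13, DESeq2 adjusted p = 0.000315). Arl14, a small GTPase, was at 12.3, 7.15, 9.78 and 11.5 CPM before and 29.1, 19.4, 17.4 and 19.9 CPM after Cre, with no overlap of the groups (change 1.04, SE 0.17, DESeq2 adjusted p = 0.00104), and its call ended without 52205 or 52424. Acnat1, an acyltransferase with close relatives in the genome, changed by 1.2 (SE 0.23), Pmf1 by 0.70 (SE 0.14), Csrp2 by 0.61 (SE 0.13), Nadk2, a mitochondrial NAD kinase, by 0.50 (SE 0.11) and Ermp1 by 0.49 (SE 0.10), each with a DESeq2 adjusted p between 0.00934 and 0.0424. All 5 were higher in each pair, with changes over the pairs from 0.95 to 1.76 for Acnat1, 0.49 to 1.14 for Pmf1, 0.31 to 0.81 for Csrp2, 0.43 to 0.59 for Nadk2 and 0.46 to 0.54 for Ermp1. None of these 5 calls held in any leave-out, and Acnat1 had no adjusted p without 52424. Lgals4, an intestinal galectin, was at 156, 173, 47.1 and 228 CPM before and 163, 411, 112 and 344 CPM after Cre, higher in each pair and least so in 52205. Of 35 tested NRF2 and glutathione genes, 9 were higher in all 4 pairs (25.7%, against 8.02%), among them the ferritin subunits Fth1 and Ftl1 and Gclm, the modifier subunit of the enzyme that starts glutathione synthesis. Gclm changed by 0.48 (SE 0.11, DESeq2 adjusted p = 0.043), from 0.35 to 0.61 over the pairs, and its call ended whichever pair was left out. In the same list Gsta3, a glutathione transferase of a multigene family, changed by -1.25 (SE 0.31, DESeq2 adjusted p = 0.023). It was at 14.2, 16.6, 0.227 and 9.29 CPM before and 2.6, 5.75, 0 and 5.32 CPM after Cre, so that in 53105 it was near 0 in both libraries. The call ended without 52205 and had no adjusted p without 52424.

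Epithelial genes split the 4 lines. Over 51 tested junction, keratin and splicing genes, the median change was -0.54 in 52205 and -0.64 in 52424, and 0.22 in 53105 and 0.38 in 53371. Epcam was at 79.3, 366, 1.99 and 69.2 CPM before and 11.1, 127, 2.14 and 100.2 CPM after Cre, so it was lower in 2 lines, near 2 CPM in both libraries of 53105 and higher in 53371. Esrp1 followed the same order, with 23.1, 109, 0.227 and 9.53 CPM before and 1.17, 33.7, 0 and 18.5 CPM after Cre. Cdh1 itself was at 591, 675, 493 and 425 CPM in the Cre libraries and so stayed above the threshold of 20 CPM in all 4 lines. Ehf, an epithelial ETS factor, and Prss22, an epithelial serine protease, were lower in each pair, with changes of -1.50 (SE 0.39) and -1.10 (SE 0.28), and Prss22 was called by DESeq2 (adjusted p = 0.0234). Prss22 was at 55.8, 288, 42.6 and 155 CPM before and 46.1, 65.0, 28.5 and 58.2 CPM after Cre, and its call ended without 52424 or 53371. Krt8 and Cgn (cingulin, a tight-junction protein) were higher in each pair, but Cgn barely moved in 52424. Its mean change was 0.49 over the 4 pairs and 0.66 without 52424. In all, 4 of the 51 genes were lower in all 4 pairs (7.84%) and 3 higher (5.88%), shares near those of all genes. Without 53105, 12 were lower in the other 3 pairs (23.5%, against 16.1%), and without 52424, 11 were higher (21.6%, against 12.8%). Of 34 genes of the classical PDAC subtype, mucins and foregut factors, 3 were lower and 3 higher in all 4 pairs, and without 52205, 8 were higher in the other 3 (23.5%, against 15%). Tff2, a gastric trefoil factor, was called lower (change -1.38, SE 0.34, DESeq2 adjusted p = 0.0166). It was at 4.43, 0.947, 1.14 and 42.2 CPM before and 0.359, 0.509, 0.178 and 18.1 CPM after Cre, and its call ended without 52205 and had no adjusted p without 53371.

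Some of the remaining lists depended on 1 line and others did not. Of 28 interferon-stimulated genes, 5 were lower in all 4 pairs (17.9%) and 1, Ifit2, was higher, and without 53105, 9 were lower in the other 3 (32.1%, against 16.1% of all genes). Leaving out another pair gave 17.9% to 28.6% lower, against 13.5% to 17.8% of all genes. Ifit2 was at 10.4, 2.84, 36.7 and 8.03 CPM before and 14.6, 6.62, 49.4 and 18.0 CPM after Cre, with a change of 0.77 (SE 0.19, DESeq2 adjusted p = 0.0981). Ifitm2, a membrane protein of a family of near copies, was called lower (change -0.48, SE 0.11, DESeq2 adjusted p = 0.0339), from -0.61 to -0.34 over the pairs, and its call ended whichever pair was left out. Of 19 MHC class I genes, 1 was lower (5.26%) and 4 were higher in all 4 pairs (21.1%, against 8.02% of all genes), with a median of -0.01. Of 30 NF-kB genes and chemokines, 4 were lower in all 4 pairs (13.3%), but without 53371, 13 were lower in the other 3 (43.3%, against 13.5% of all genes). The other leave-outs of this list gave 13.3% to 20% lower, against 14.6% to 17.8% of all genes. Ier3, an early response gene, was called lower, with a change of -0.61 (SE 0.12, DESeq2 adjusted p = 0.00771) and from -0.94 to -0.39 over the pairs, and its call held only without 52205. The chemokine Cxcl1 was lower in 3 pairs and at 29.4 before and 33.6 CPM after Cre in 53371. Of 32 EGF receptor, ligand and MAPK feedback genes, 6 were lower in all 4 pairs (18.8%) and none higher, with a median of -0.16, and without 53371, 10 were lower in the other 3 (31.2%, against 13.5%). Each other leave-out of these genes gave 28.1% lower, against 14.6% to 17.8% of all genes. Of 35 hypoxia and glycolysis genes 6 were lower in all 4 pairs (17.1%), among them P4ha2, a collagen prolyl hydroxylase, with a change of -0.60 (SE 0.13, DESeq2 adjusted p = 0.0281) and from -0.83 to -0.38 over the pairs. The P4ha2 call ended whichever pair was left out. The median of this list was 0.17 in 52205 and -0.19 over the 4 lines, and without 52205 it was -0.34, with 15 of 35 lower in the other 3 pairs (42.9%, against 17.8% of all genes). Of 35 sterol and fatty acid genes 4 were lower and 3 higher in all 4 pairs. Of 23 p53 target and checkpoint genes 6 were lower (26.1%) and 4 higher (17.4%) in all 4 pairs. Of 34 MYC and ribosome biogenesis genes, 3 were lower and 1 higher in all 4 pairs, with a median of 0.06, and without 53105, 10 were higher in the other 3 (29.4%, against 15.3%). In the other leave-outs of this list 2.94% to 5.88% were higher, against 12.8% to 15% of all genes. Of 17 basal-like genes, 4 were lower in all 4 pairs (23.5%) and none higher, with a median of -0.30 that was -0.11 without 52424, and 7 were lower in the other 3 without 53371 (41.2%, against 13.5%).

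**Figure D4:**
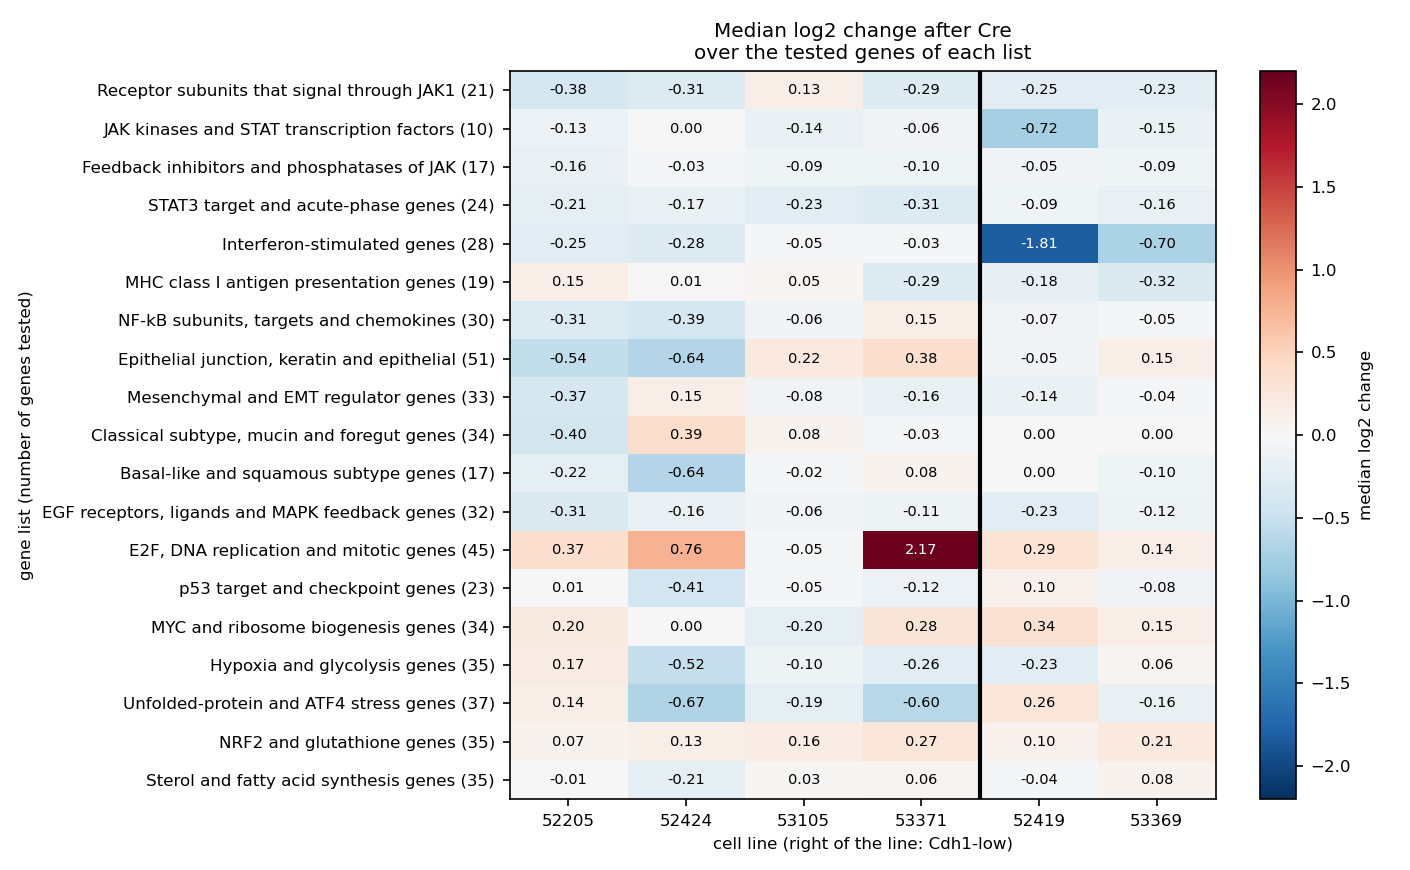
Median log2 change (Cre minus parental) over the tested genes of 19 lists (rows, number of tested genes in brackets) in each line (columns), with Cdh1-low lines to the right. STAT3-target genes are at -0.17 to -0.31 in the 4 Cdh1-high lines, and the cell-cycle list is at 2.17 in 53371 and at -0.05 in 53105.

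The Cdh1-low lines 52419 and 53369 share no library with the Cdh1-high lines and give the same measure in other cells. Of the 79 genes that DESeq2 called lower in the Cdh1-high lines, 43 were lower in both Cdh1-low lines (54.4%), against 29.8% of all genes tested. Of the 19 called higher, 5 were higher in both Cdh1-low lines (26.3%, against 33.3% of all genes). Osmr was at 7.36 and 15.1 CPM before and at 1.15 and 2.14 CPM after Cre in 52419 and 53369. Il13ra1 and Cebpd were lower in both of these lines too, with log2 changes of -1.95 and -1.46 for Il13ra1 and of -1.30 and -1.26 for Cebpd. The difference of the Osmr change, Cdh1-high minus Cdh1-low, was 0.30 (SE 0.46, limma unadjusted p = 0.534), and that of Cebpd was -0.30 (SE 0.36, unadjusted p = 0.43).

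The difference between the classes itself was tested in all 12 libraries. No gene passed limma at an adjusted p under 0.05 (0 of 13254, 0%). At an unadjusted p under 0.05, 213 genes had a lower change in the Cdh1-high lines (1.61%) and 228 a higher one (1.72%), and edgeR called 0. DESeq2 called 3 genes whose change was lower in the Cdh1-high lines (0.0226%), Fbln2, Pmepa1 and Sulf2, and 2 whose change was higher (0.0151%), Irf7 and Usp18. The DESeq2 fit of the class difference was not repeated with a line left out, so the stability of these calls was not tested. Fbln2, the matrix protein fibulin 2, was at 863, 405, 449.9 and 1267 CPM before and 641, 280.1, 411 and 857 CPM after Cre in 52205, 52424, 53105 and 53371. In 52419 and 53369 it was at 226 and 217 CPM before and 389.5 and 418 CPM after Cre, so the 2 classes moved in opposite directions. The difference was -1.28 (SE 0.18, limma adjusted p = 0.931, DESeq2 adjusted p = 2.89e-05). Sulf2, lower in each Cdh1-high pair, was at 23 and 61.1 CPM before and 27.4 and 88.6 CPM after Cre in the Cdh1-low lines, a difference of -1.63 (SE 0.25, DESeq2 adjusted p = 0.00465). Pmepa1, an inhibitor of TGF-beta signalling that TGF-beta induces, was lower in 3 of 4 Cdh1-high pairs and higher in both Cdh1-low pairs, from 17.2 to 31.2 and from 38.2 to 84.9 CPM (difference -1.34, SE 0.25, DESeq2 adjusted p = 0.00898). Dock8 and Slc4a4 had the same pattern without a DESeq2 call, with differences of -1.06 (SE 0.19) and -0.95 (SE 0.19).

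Interferon genes were among the differences in the other direction. Irf7, a transcription factor of the interferon response, was at 3.23, 7.75, 1.82 and 2.21 CPM before and 1.88, 3.85, 0.949 and 1.27 CPM after Cre in the Cdh1-high lines. In 52419 and 53369 it was at 44.2 and 5.28 CPM before and at 1.08 and 0.786 CPM after Cre. The difference was 2.78 (SE 0.64, DESeq2 adjusted p = 0.0335), and the gene was lower after Cre in every line. Usp18, an interferon-induced inhibitor of receptor signalling, was at 41.5 and 3.14 CPM before and at 0.307 and 0.0714 CPM after Cre in the Cdh1-low lines, and at most at 2.67 CPM in the Cdh1-high ones (difference 3.67, SE 0.84, DESeq2 adjusted p = 0.00294). Ifit3 and Xaf1, also interferon-induced, had differences of 3.07 (SE 0.58) and 2.61 (SE 0.54) from low levels in the Cdh1-high lines. The median of the 28 interferon genes was -1.81 in 52419 and -0.70 in 53369, and between -0.28 and -0.03 in the Cdh1-high lines. Socs3 was lower by a log2 change of -1.37 and -1.29 in the Cdh1-low lines (difference 0.84, SE 0.22, limma unadjusted p = 0.00421, adjusted p = 1). Myo5c, an unconventional myosin of epithelial cells, was higher in each Cdh1-high pair and lower in both Cdh1-low pairs, a difference of 1.25 (SE 0.23, DESeq2 adjusted p = 0.0835).

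**Figure D5:**
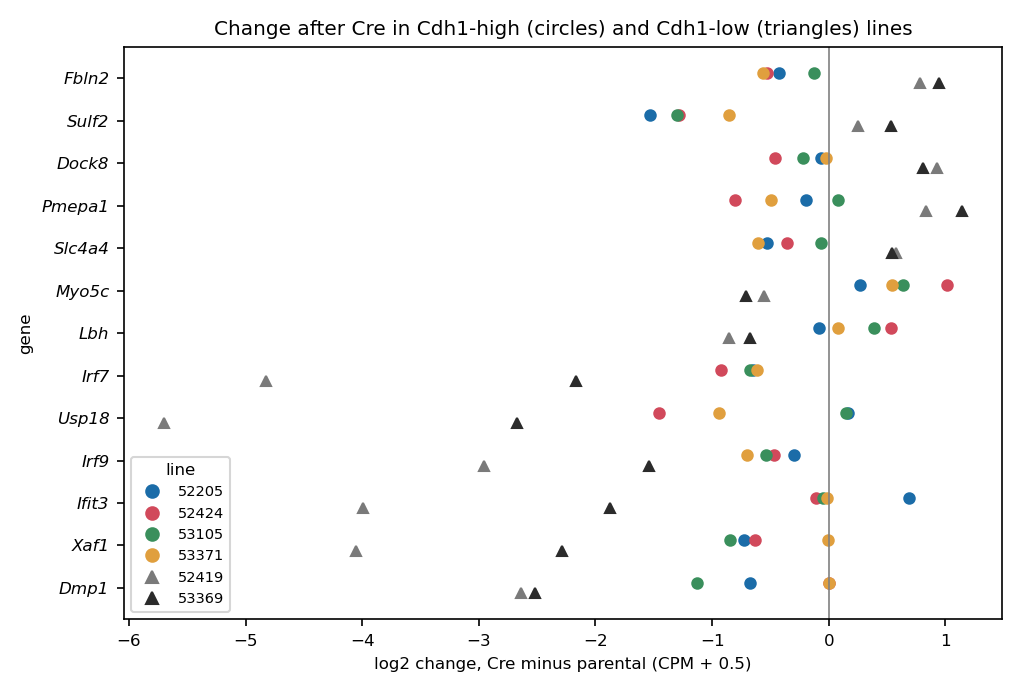
Log2 change (Cre minus parental, on CPM + 0.5) in each line for 13 genes with a small p for the difference between classes, as circles for Cdh1-high and triangles for Cdh1-low lines. Fbln2 and Sulf2 lie below 0 in all Cdh1-high lines and above 0 in both Cdh1-low lines, and the interferon genes Irf7, Usp18 and Irf9 are lowest in 52419.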

How the data were processed

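Poly(A)-selected RNA of cultured mouse PDAC lines was sequenced. The protocol in the labels mentions no step that keeps strand, so reads of a gene and its antisense partner may be mixed. Per the submitters' processing notes, FastQC 0.11.9, featureCounts and edgeR were used with GRCm38 or mm10; the aligner is not given in the sources used here. One table, as deposited by the authors, gives a normalised signal for 20432 genes in counts per 1e+06 scaled reads (CPM). Every value was a whole multiple of 1 read within 0.01 (100% of values), so the reads behind the deposited signal were recovered by division. A second table deposited by the authors, with log2 values of 10903 genes, served as an alternative. Symbols and coordinates come from RefSeq on GRCm38 (19448 genes) and GENCODE (11 genes), and 973 genes stayed unnamed.

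Genes reaching 1 CPM of the column total in at least 4 of the 8 libraries were tested (12858). Values were taken as log2(CPM + 0.5), which understates changes of low genes, and fitted with limma-trend (limma 3.58.1, R 4.3.3) with line as a block, 2-sided. P-values were adjusted by Benjamini-Hochberg over all genes tested. The class difference used 12 libraries (13254 genes). edgeR 4.0.16 and DESeq2 1.42.0 were run on the recovered counts behind the deposited values. The limma, edgeR and DESeq2 fits were tested on simulated counts in which each change was the same in every Cdh1-high line. That setting has no spread of the change between lines, so it does not check the calls made here. Parental and Cre deviations from their group means correlated across genes at 0.55, 0.76, 0.85 and 0.48 within lines, each highest with its own line, and the series describes isogenic pairs, so the block belongs to the main fit.

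Genes named are the JAK and STAT genes and markers, the 8 with the smallest p in each direction, up to 8 with a 2-fold change in each pair, the 3 with the smallest p per list, the 5 per direction with the smallest p for the class difference, and a few said to be chosen later or given as list examples. The lines, markers and gene lists were chosen with earlier results of these data known, so list counts are not independent evidence. Results for some items are not reported here. A library value between 0 and 3 reads lies at the counting limit. Intervals cover the spread between lines, and limits at 0 cover counting error only.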

Additional observations from a re-analysis of the deposited data

Results flagged for a closer look

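Of 104 results checked for 1 line far from the other 3 (84 named genes and 20 list medians), 4 were found, and chance flags about 1 in 20. Acnat1 was higher by 1.76 (log2) in 52424, against 0.95 to 1.09 in the other Cdh1-high lines. Lbp changed by -2.98 in 52205, against -1.38 to -1.06 in the others. Olfr1372-ps1 changed by -1.12 in 53371, against -1.28 to -1.25. Pdgfra changed by -0.41 in 52424, against -0.74 to -0.70. All 4 genes kept 1 direction in the 4 pairs.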

How the results depend on the processing

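The count of 0 genes passing limma in each direction held for other pseudocounts, filters, scalings, variance settings, the deposited log2 table, a fit of all 12 libraries, no replicate block and each pair left out, while DESeq2 gave 79 lower and 19 higher. For the class difference DESeq2 gave 3 and 2. At an unadjusted p under 0.05, the fit with no replicate block gave 128 genes lower and 138 higher instead of 687 and 522, and 13 and 36 for the class difference instead of 213 and 228. For the class difference the counts were 354 and 439 with no filter and 426 and 449 with library weights. Leaving out 1 pair gave 420 to 745 lower and 280 to 652 higher genes, with the lowest counts without 52424, and 316 higher without 53371. For the class difference it gave 94 to 331 and 53 to 346, with 94 without 53369, 117 and 53 without 52419, and the highest counts without 53371. For the Cre change in the Cdh1-high lines, DESeq2 with 1 pair left out called 24 to 96 genes lower and 5 to 63 higher. The higher genes numbered 5 without 52424, 33 without 52205 and 63 without 53105. These DESeq2 leave-outs were chosen after seeing the data. Genes lower in all remaining pairs numbered 1736 to 2299 and higher 1638 to 1975, since 3 pairs are less strict than 4. Genes at least 2-fold lower in each pair numbered 9, but 1 with a pseudocount of 2, 1 with 1 CPM required in every library, 2 in the log2 table and 10 to 31 with 1 pair left out (31 without 53105, 19 without 53371). Those 2-fold higher numbered 2 with a pseudocount of 0.1 and 1 to 5 with 1 pair left out. Of 1651 alternative values of 84 named genes, 1613 kept direction and side of the threshold, 34 passed it (all by DESeq2) and 4 changed sign. Outside DESeq2 no gene passed in any setting, so keeping the side of the threshold there is no sign of stability. With 1 pair left out, Cdh1 ranged from -0.12 to 0.25, Jak1 from -0.056 to 0.11, Stat5a from -0.052 to 0.23 and Stat6 from -0.061 to 0.014. The cause was not tested. List medians moved by more than their spread over pairs in 4 of 260 alternatives, and the median over all genes stayed between -0.01 and 0.00. Genes near 1 CPM rest on few reads.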
